A study of Homo sapiens with 8 samples.

Results

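The protein tyrosine phosphatase genes described here are those whose symbol begins with PTPN or PTPR followed by a number or a single letter, together with PTP4A1, PTP4A2 and PTP4A3. The rule found 37 genes, 17 PTPN, 17 PTPR and 3 PTP4A, of the 19775 genes that have a probe set of their own on the array, and it left out 6 similarly named symbols such as PTPRCAP and the antisense transcript PTPRG-AS1. Their 115 probe sets gave 31 genes with several probe sets and 6 genes with 1, and each gene was followed by its brightest probe set. PTPRJ, PTPRQ and PTPRT were not analysed here, since no probe set of the table carried one of these symbols alone.

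Signal was measured in Kasumi-1 cells, an established human acute myeloid leukemia line with the AML-ETO fusion that is described as lacking endogenous NR4A proteins. All cells were electroporated with in vitro transcribed mRNA and harvested 6 h later for Affymetrix U133 Plus 2.0 arrays. The GFP mRNA served as the control on 3 arrays, wild type NR4A1 (NR4A1 WT) was introduced on 3 arrays, and NR4A1 with a mutated zinc finger in its DNA binding domain (NR4A1 CEAA) was introduced on 2 arrays. The comparisons therefore ask which phosphatase transcripts move after NR4A1 expression and which of these movements are seen with the DNA binding mutant. Nothing in the labels says that the arrays of a group came from separate cultures, so p-values measure the spread between arrays, which may be technical.

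Protein tyrosine phosphatases remove phosphate from tyrosine and so oppose, or in some cases switch on, tyrosine kinases. The PTPN genes encode enzymes inside the cell, sorted by the SH2, PEST, FERM or other sequences that carry them to their substrates. The PTPR genes encode transmembrane enzymes with an ectodomain outside the cell, among which CD45, the product of PTPRC, is the major phosphatase on the surface of blood cells. The PTP4A enzymes are small and carry a prenyl lipid that anchors them to membranes. NR4A1 is an orphan nuclear receptor that binds the sequence AAAGGTCA (the NBRE) as a monomer.

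Because NR4A1 acts through a defined DNA element, the promoter windows of the members are shown first. RefSeq windows of 300 bases on GRCh38.p14, from 250 before to 50 after a transcript start, were at hand for 33 of the 37 members, with 56 windows in all, and none for PTP4A3, PTPN11, PTPRB and PTPRN2. AAAGGTCA on either strand was found in 1 of these 33 members, PTP4A1, in 1 of its 4 windows, while 1.49% of all 27305 genes with a window held it. The shorter AGGTCA, which lies within the NBRE, was found in 4 members (PTP4A1, PTPN3, PTPN5 and PTPN21), where 16.5% of all genes held it. CCGGAA, a core of the sites bound by ETS factors, was found on either strand in 6 members (PTP4A2, PTPN1, PTPN23, PTPRA, PTPRE and PTPRF), where 20.1% of all genes held it. Matches are descriptions of these letters in these windows and are not evidence of binding. The study found most NR4A1 binding sites of regulated genes far from the transcript start, and these windows do not cover such sites. A window without a match therefore does not show that a gene lacks NR4A1 sites. The stretch around the NBRE of PTP4A1, which starts 188 bases before the transcript start (chr6:63516232-63516279, plus strand), is printed with the NBRE in capitals, followed by the whole windows of the members with the clearest differences in signal that had one, PTPN13 (chr4:86594065-86594364, plus strand), PTPN9 (chr15:75579266-75579565, minus strand), PTPN22 (chr1:113871663-113871962, minus strand) and PTPRE (chr10:127906853-127907152, plus strand, the first of its starts), each 5′ to 3′ on the strand of the gene.
PTP4A1 NBRE: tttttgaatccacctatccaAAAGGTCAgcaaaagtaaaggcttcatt
PTPN13: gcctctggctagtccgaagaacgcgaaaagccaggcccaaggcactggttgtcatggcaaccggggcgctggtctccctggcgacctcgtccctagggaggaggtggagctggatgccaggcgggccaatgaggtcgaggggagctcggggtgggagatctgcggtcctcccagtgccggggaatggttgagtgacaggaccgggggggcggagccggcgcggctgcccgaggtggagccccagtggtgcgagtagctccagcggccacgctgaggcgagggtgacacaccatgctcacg
PTPN9: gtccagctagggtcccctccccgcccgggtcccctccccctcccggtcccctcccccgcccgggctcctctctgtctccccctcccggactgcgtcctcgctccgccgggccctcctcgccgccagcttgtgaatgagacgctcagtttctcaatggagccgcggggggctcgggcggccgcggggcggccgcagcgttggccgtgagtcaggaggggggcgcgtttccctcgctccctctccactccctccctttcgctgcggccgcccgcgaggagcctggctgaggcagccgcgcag
PTPN22: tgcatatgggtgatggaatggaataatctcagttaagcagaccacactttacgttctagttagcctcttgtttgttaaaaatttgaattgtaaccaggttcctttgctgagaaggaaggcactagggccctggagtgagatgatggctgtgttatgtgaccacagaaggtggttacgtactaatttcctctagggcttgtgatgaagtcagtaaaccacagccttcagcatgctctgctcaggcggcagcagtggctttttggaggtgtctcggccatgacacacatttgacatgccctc
PTPRE: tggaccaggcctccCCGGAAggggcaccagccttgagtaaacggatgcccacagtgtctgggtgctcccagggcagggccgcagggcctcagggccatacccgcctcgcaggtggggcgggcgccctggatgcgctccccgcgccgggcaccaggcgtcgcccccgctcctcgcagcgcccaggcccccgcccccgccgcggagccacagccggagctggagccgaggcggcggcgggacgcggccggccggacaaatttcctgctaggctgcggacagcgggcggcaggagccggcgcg
None of the letters searched was present in the windows of PTPN13, PTPN9 and PTPN22. The capitals in the window of PTPRE mark CCGGAA.

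The labelled cell type was checked on markers of Kasumi-1 blasts. MPO (14.34 to 14.43), KIT (13.45 to 13.78), RUNX1T1 (11.07 to 11.61) and CD34 (7.44 to 7.88) were all above the array medians of 4.755 to 4.802 on the log2 scale. Of 10 markers of T, B and erythroid cells and fibroblasts, CD3G, MS4A1 and COL3A1 lay below the median on all 8 arrays, 5 of the others lay between 4.6 and 5.69, and DCN (5.27 to 6.01) and COL1A1 (7.27 to 7.61) were brighter. For each of the 4 blast markers, the arrays of at least 1 NR4A1 group did not overlap the GFP arrays. How many of all genes do so was not counted. RUNX1T1 (11.42 to 11.51 with GFP) was lower on the NR4A1 WT arrays (11.07 to 11.12) and higher on the NR4A1 CEAA arrays (11.58 and 11.61). CD34 was higher with NR4A1 WT (7.82 to 7.88) than with GFP (7.44 to 7.69), MPO was slightly lower (14.34 to 14.4 against 14.41 to 14.43), and KIT was higher with NR4A1 CEAA (13.75 and 13.78) than with GFP (13.49 to 13.55). Of the markers of other cells, MS4A1 (4.07 and 4.4 against 3.89 to 3.97) and HBB (5.6 and 5.69 against 5.49 to 5.57) were higher on the CEAA arrays than on the GFP arrays, and COL3A1 was lower (3.54 and 3.7 against 3.72 to 3.88). The part of these markers in the results was not tested. The brightest of 3 NR4A1 probe sets lay between 6.28 and 6.61 on all arrays, which checks nothing about the labels, since where its probes lie relative to the introduced mRNA is not known here. Levels under the array medians, or near those of the markers of other cells, cannot be told from background here, since detection was not called by the authors or for these comparisons.

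The family spanned the range from bright signal to levels that may be background. In all, 27 members were above the array median on all 8 arrays and 6 were below it on all 8, namely PTPN3, PTPN5, PTPN20, PTPRD, PTPRR and PTPRZ1. PTPN22, PTPRB, PTPRH and PTPRN2 lay on both sides of it. Lying above the median is not detection, since CD3D (5.04 to 5.38) and HBB (5.3 to 5.69) did so too, and PTPRN (5.05 to 5.42), PTPRS (4.81 to 5.38) and PTPN21 (5.34 to 5.64) lay in or below that range. Replicates of PTPN11, for example, read 11.86, 11.91 and 11.8 with GFP, and those of PTPN20 read 3.01, 2.75 and 2.96. Signals of different probe sets are not amounts of RNA, and members were not ranked by them.

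NR4A1 WT raised the signal of several intracellular and transmembrane phosphatases, among them PTPN13 (4.06-fold), PTPRB (3.25-fold), PTPN9 (1.94-fold) and PTPN22 (1.74-fold), and lowered PTPRE (2.26-fold). The folds of PTPN13, PTPRB and PTPN22 are ratios of signal from GFP levels that may be background, so their size and order are not those of the RNA. Against GFP, 8 of the 37 members were higher (21.6%), where 9.97% of all genes were higher, and 3 were lower (8.11%), where 10.3% of all genes were lower. Together these 11 made up 29.7% of the members, beside 20.3% of all genes. The median log2 difference of the members was 0.04 beside 0.0 over all genes, and the median size of the difference was 0.089 beside 0.11, so most of the family lay near zero while single members moved. In bulk RNA a change in the level per cell and a change in the share of cells that carry a transcript cannot be told apart. These calls used limma with an adjusted p under 0.05 over all genes.

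Among the intracellular enzymes, PTPN13 encodes a large FERM and PDZ phosphatase known to bind the tail of the death receptor FAS. Its log2 signal was 4.98, 4.86 and 5.25 on the GFP arrays, 7.05, 6.94 and 7.15 on the NR4A1 WT arrays, and 5.21 and 5.13 on the NR4A1 CEAA arrays. The WT arrays thus stood apart from both other groups, which overlapped each other at or below levels that the T cell marker CD3D also gave. The difference from GFP was 2.02 ± 0.1 (SE) on the log2 scale with an adjusted p of 8.07e-06.

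PTPN9, also called MEG2, carries a SEC14 lipid-binding domain and sits on secretory vesicles. Its signal was 6.62, 6.48 and 6.64 with GFP, 7.47, 7.62 and 7.54 with NR4A1 WT, and 6.24 and 6.29 with NR4A1 CEAA. The 3 groups did not overlap, with the WT arrays highest and the CEAA arrays lowest. The rise with NR4A1 WT was 0.96 ± 0.07 (adjusted p = 3.69e-05).

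Of the 3 PEST phosphatases, which dephosphorylate adaptor proteins and SRC family kinases, PTPN22 and PTPN12 rose and PTPN18 (0.05 ± 0.06, adjusted p = 0.64) did not pass the test. PTPN22, an inhibitor of antigen receptor signaling in lymphocytes, read 4.44, 4.48 and 4.6 with GFP, 5.42, 5.38 and 5.13 with NR4A1 WT, and 4.75 and 4.67 with NR4A1 CEAA. Only the WT arrays were above the array medians, and the difference of 0.8 ± 0.09 (adjusted p = 0.000392) starts from a level that may be background. PTPN12, known as PTP-PEST and a regulator of adhesion and motility, read 5.49, 5.74 and 5.52 with GFP, 6.26, 6.36 and 6.02 with NR4A1 WT, and 5.68 and 5.99 with NR4A1 CEAA. Its WT arrays were all above the others, narrowly so against the second CEAA array, and the difference from GFP was 0.63 ± 0.12 (adjusted p = 0.00646). The GFP and CEAA levels of PTPN12 lay within the range of the fibroblast marker DCN (5.27 to 6.01), so they may be background. A smaller rise was called for PTPN1 (0.32 ± 0.06, adjusted p = 0.00514), which acts on the insulin receptor and JAK2 from the endoplasmic reticulum.

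PTPN7, a phosphatase of ERK and p38 found in blood cells, was among the 3 members that fell. Its signal was 9.95, 9.99 and 9.95 with GFP, 9.61, 9.59 and 9.44 with NR4A1 WT, and 9.57 and 9.64 with NR4A1 CEAA. Both NR4A1 groups were below GFP and overlapped each other. The difference between NR4A1 WT and GFP was -0.42 ± 0.06 (adjusted p = 0.00173).

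Among the transmembrane enzymes, PTPRB, the vascular endothelial phosphatase that acts on TIE2 and VE-cadherin, read 4.79, 4.74 and 4.79 with GFP, 6.73, 6.18 and 6.52 with NR4A1 WT, and 4.59 and 5.01 with NR4A1 CEAA. GFP and CEAA arrays were close to the array medians and only the WT arrays were clearly above them. The difference from GFP was 1.7 ± 0.15 (adjusted p = 0.000131).

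PTPRC, which encodes CD45 and activates SRC family kinases by removing an inhibitory phosphate, read 9.97, 10.04 and 9.83 with GFP, 10.6, 10.33 and 10.46 with NR4A1 WT, and 10.47 and 10.38 with NR4A1 CEAA. Both NR4A1 groups lay above GFP and overlapped each other. The rise with NR4A1 WT was 0.52 ± 0.08 (adjusted p = 0.00342). PTPN22 and PTPRC belong to a lymphocyte differentiation list that the study drew from its direct targets. Those are genes induced on these same arrays that also had NR4A1 binding sites assigned to them from ChIP-seq. The rise of PTPN22 and PTPRC here is therefore not independent evidence, and the binding sites were not examined here. PTPRM, a MAM domain receptor that mediates adhesion between like cells, rose by 0.38 ± 0.08 (adjusted p = 0.014), a call that was lost without GFP replicate 1 (adjusted p = 0.0512).

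PTPRE, a receptor with a short ectodomain that is known to act on SRC kinases, fell most. It read 8.98, 9.09 and 8.92 with GFP, 7.87, 7.78 and 7.81 with NR4A1 WT, and 8.78 and 8.92 with NR4A1 CEAA. The WT arrays were all well below the others, and the GFP and CEAA arrays met at 8.92. The difference from GFP was -1.17 ± 0.07 (adjusted p = 1.28e-05). PTPRA, its closest relative, did not pass the test (0.01 ± 0.06, adjusted p = 0.939).

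PTP4A3, the membrane-anchored phosphatase PRL-3 that is linked to metastasis, read 7.72, 7.7 and 7.7 with GFP, 7.37, 7.3 and 7.2 with NR4A1 WT, and 7.31 and 7.43 with NR4A1 CEAA. Both NR4A1 groups were below GFP and overlapped each other. The difference with NR4A1 WT was -0.42 ± 0.06 (adjusted p = 0.00171), whereas PTP4A1 (-0.24 ± 0.12, adjusted p = 0.226) and PTP4A2 (-0.09 ± 0.05, adjusted p = 0.296) did not pass. The values by array of the members called after NR4A1 WT are plotted together.

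**Figure D1:**
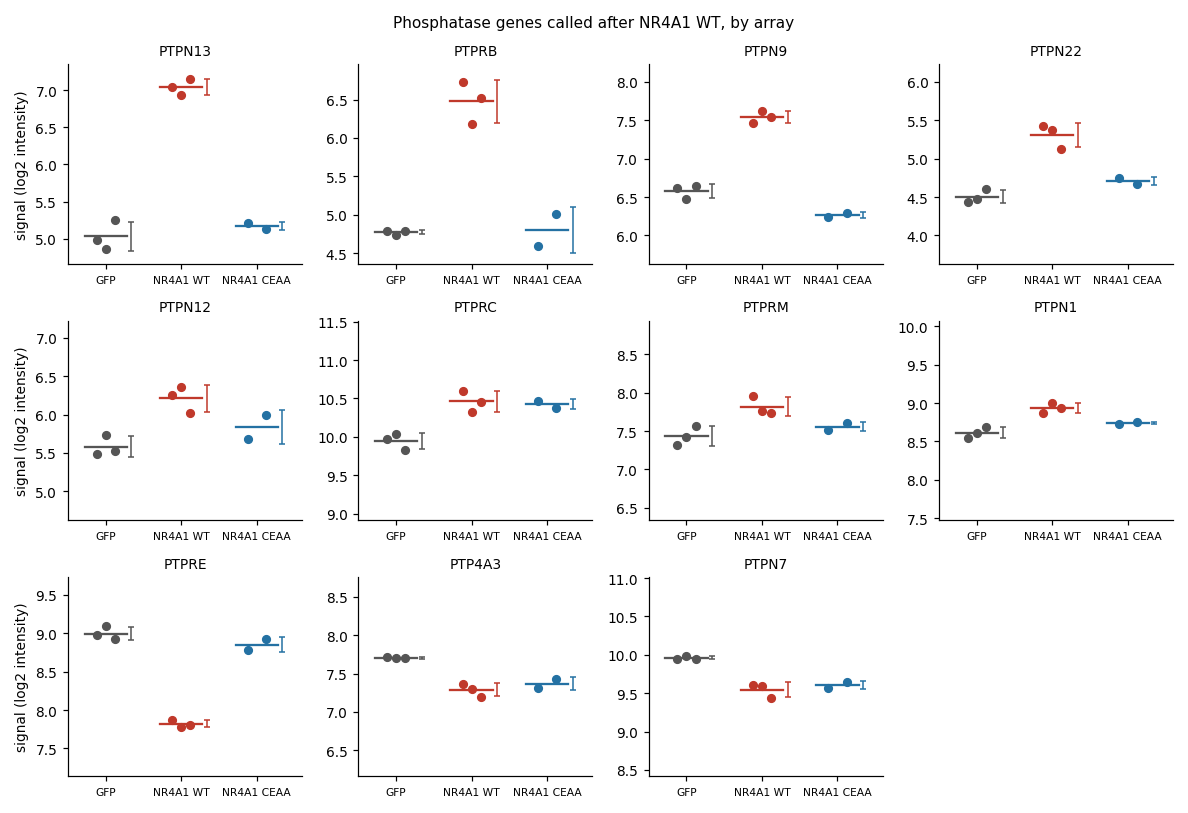
Log2 signal (vertical axis) of the 11 members called between NR4A1 WT and GFP, with 1 point per array, a line at each group mean and a bar of 1 SD beside it, on 2 NR4A1 CEAA, 3 NR4A1 WT and 3 GFP arrays. Vertical axes differ in position but cover the same span except where the groups lie further apart. The WT points of PTPN13 (6.94 to 7.15) and PTPRB (6.18 to 6.73) stand above both other groups, those of PTPRE (7.78 to 7.87) stand below them, and in PTPRC, PTP4A3 and PTPN7 the WT and CEAA points lie together.

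By Rank Product, a test of ranked differences that the study used, 5 of the 8 higher members passed a q under 0.05 (PTPN13, PTPRB, PTPN9, PTPN22 and PTPN12, where 2.24% of all genes passed) and 1 of the 3 lower ones (PTPRE, where 2.12% passed). The same 5 and 1 were those that passed limma and changed at least 1.5-fold, as did 2.34% and 2.19% of all genes. The study applied Rank Product to probes, whereas here 1 probe set per gene was ranked. PTPRC, which the study's lymphocyte list holds, did not pass Rank Product here (q = 0.107).

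After NR4A1 CEAA the differences from GFP stayed between -0.43 and 0.59, beside -1.17 to 2.02 after NR4A1 WT. PTPN4, PTPRC, PTPRG and PTPN11 were higher, and PTPN6, PTPN5, PTPN7, PTP4A3, PTPN18 and PTPN9 were lower. These are 4 of 37 members (10.8%), where 7.14% of all genes were higher, and 6 of 37 (16.2%), where 12.1% of all genes were lower, and together 27.0% beside 19.2% of all genes. The median log2 difference was 0.03 for the members and -0.03 over all genes. This comparison shares the GFP arrays with that of NR4A1 WT, so values of both are given side by side without a test of their likeness.

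The SH2 phosphatases, which are drawn to phosphorylated receptors and adaptors, moved apart in their brightest probe sets. PTPN6 (SHP-1), the main inhibitory phosphatase of blood cells, read 8.09, 8.07 and 8.04 with GFP, 8.07, 8.1 and 8.07 with NR4A1 WT, and 7.65 and 7.63 with NR4A1 CEAA. Replicates agreed within 0.05 and the CEAA arrays alone were lower. The difference from GFP was -0.43 ± 0.05 (adjusted p = 0.00169). PTPN11 (SHP-2), a positive regulator of RAS signaling that is mutated in some leukemias, was higher by 0.25 ± 0.06 (adjusted p = 0.0226). A further PTPN11 probe set above the medians on all arrays, 209896_s_at, differed by 0.05 ± 0.07 (adjusted p over all probe sets = 0.739). With NR4A1 WT the differences of PTPN6 and PTPN11 were both 0.01, with adjusted p-values of 0.908 and 0.959.

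PTPN4, a FERM and PDZ phosphatase like PTPN13, read 5.33, 5.86 and 5.82 with GFP, 5.86, 5.76 and 5.59 with NR4A1 WT, and 6.17 and 6.34 with NR4A1 CEAA. The CEAA arrays were highest, and the GFP arrays spread over about as wide a range as the difference itself. That difference was 0.59 ± 0.16 (adjusted p = 0.0376). The GFP and WT levels of PTPN4 lay within the range of the fibroblast marker DCN (5.27 to 6.01), so they may be background. PTPN13 differed by 0.14 ± 0.11 (adjusted p = 0.44).

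PTPRG, a receptor with a carbonic anhydrase-like ectodomain, read 7.96, 8.03 and 7.88 with GFP, 8.0, 7.66 and 7.96 with NR4A1 WT, and 8.43 and 8.33 with NR4A1 CEAA. The CEAA arrays were above all others, and the difference from GFP was 0.42 ± 0.11 (adjusted p = 0.0265). A PTPRG probe set almost as bright, 204944_at, gave 7.86, 7.74 and 7.88 with GFP, 7.81, 7.97 and 7.85 with NR4A1 WT, and 7.86 and 7.84 with NR4A1 CEAA, a difference from GFP of 0.02 ± 0.08 (adjusted p over all probe sets = 0.885). PTPRC was higher by 0.48 ± 0.09 (adjusted p = 0.0111).

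PTPN5, a phosphatase of ERK best known from neurons, read 3.95, 3.93 and 3.94 with GFP, 4.03, 4.13 and 3.9 with NR4A1 WT, and 3.69 and 3.41 with NR4A1 CEAA. Every value was below the array medians, and the difference of -0.39 ± 0.1 (adjusted p = 0.0265) concerns signal that may be background. It was -0.25 without NR4A1 CEAA replicate 2. Its relative PTPN7 fell by 0.36 on the log2 scale (SE 0.07, adjusted p = 0.00892). PTP4A3 fell by 0.34 (SE 0.07, adjusted p = 0.0116), PTPN18 by 0.33 (SE 0.07, adjusted p = 0.0154) and PTPN9 by 0.32 (SE 0.07, adjusted p = 0.0187).

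**Figure D2:**
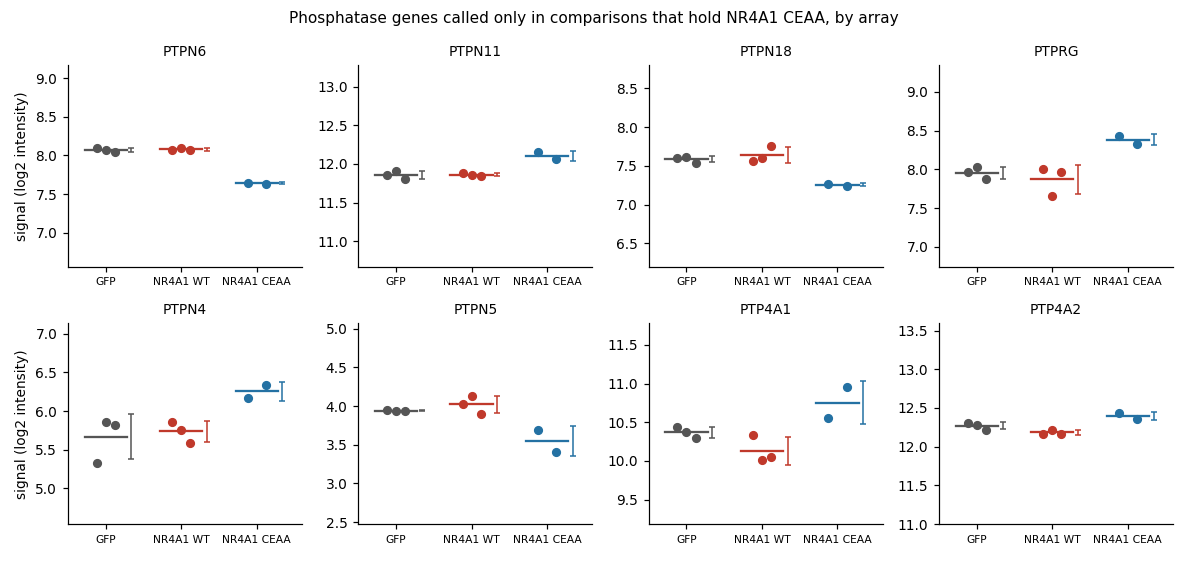
Log2 signal (vertical axis) of 8 of the 9 members (all but PTPRZ1) called between NR4A1 CEAA and another group but not between NR4A1 WT and GFP, with 1 point per array, a line at each group mean and a bar of 1 SD beside it, on 2 NR4A1 CEAA, 3 NR4A1 WT and 3 GFP arrays. The CEAA points of PTPN6 (7.63 and 7.65) and PTPN18 (7.24 and 7.27) lie below the other groups and those of PTPRG (8.33 and 8.43) above them, while the GFP points of PTPN4 range from 5.33 to 5.86.

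These calls rest on 2 arrays. By Rank Product 0 members were higher and 0 lower (0.45% and 1.37% of all genes passed), against 4 and 6 by limma and 5 and 7 at an unadjusted limma p under 0.05. At 1.5-fold or more, PTPN4 was the 1 higher member (0.612% of all genes) and 0 were lower (1.52%). Leaving out arrays lowered the number of higher members to 0 without either CEAA array, 1 without GFP replicate 3 and 2 without GFP replicate 1, and that of lower members to 2 and 3 without CEAA replicates 1 and 2. Of these 10 members, PTPN6 alone passed whichever array was left out, PTPN7 and PTP4A3 were lost without CEAA replicate 1, and PTPRC was lost without either CEAA array.

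**Figure D3:**
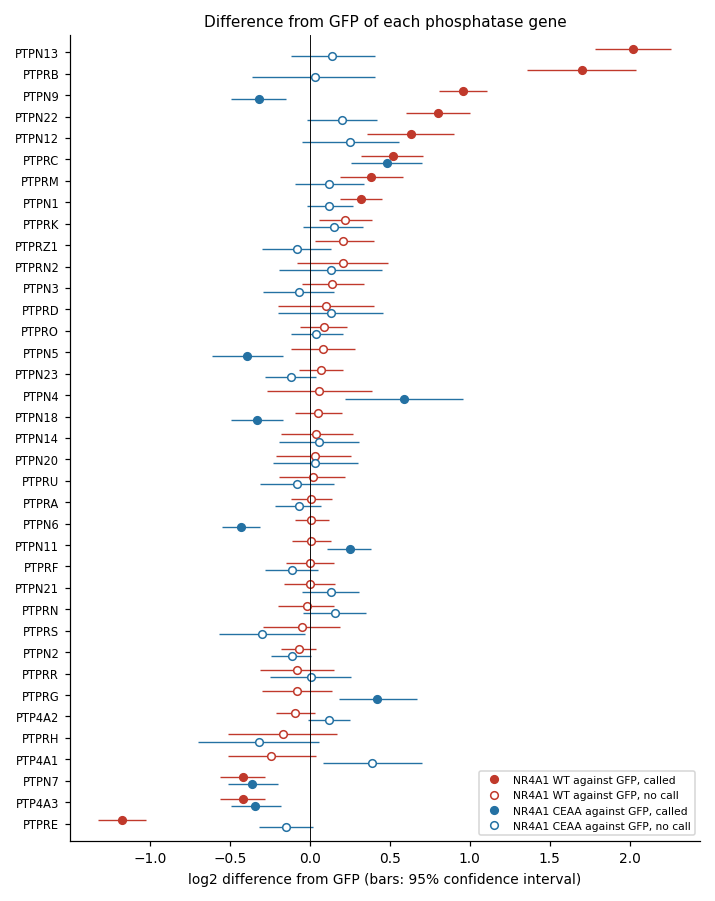
Log2 difference from GFP (horizontal axis) of each of the 37 members (rows, ordered by the NR4A1 WT difference), for NR4A1 WT (red) and NR4A1 CEAA (blue). Filled points passed the limma test, open points did not, and bars are 95% confidence intervals. PTPN13 at 2.02 and PTPRE at -1.17 mark the ends of the NR4A1 WT range, whereas the CEAA differences stay between -0.43 and 0.59.

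Set directly against each other, the NR4A1 groups differed in 15 members (40.5%, where 31.5% of all genes differed). NR4A1 WT was higher than NR4A1 CEAA for 9 of 37 (24.3%), where 18.0% of all genes were higher, and lower for 6 of 37 (16.2%), where 13.4% of all genes were lower. The higher ones were PTPN13 (1.88 ± 0.11, adjusted p = 2.15e-05), PTPRB (1.68 ± 0.17, adjusted p = 0.000182), PTPN9 (1.28 ± 0.07, adjusted p = 1.63e-05), PTPN22 (0.6 ± 0.1, adjusted p = 0.00197), PTPN5 (0.47), PTPN6 (0.44), PTPN18 (0.39), PTPRZ1 (0.3) and PTPN1 (0.2). PTPRE (-1.03 ± 0.07, adjusted p = 4.22e-05), PTP4A1 (-0.63 ± 0.13, adjusted p = 0.00788), PTPN4 (-0.52), PTPRG (-0.5), PTPN11 (-0.24) and PTP4A2 (-0.21) were lower. PTPRZ1, a receptor of the nervous system, lay below the array medians on every array, and its difference was 0.18 without NR4A1 CEAA replicate 1.

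PTP4A1 (PRL-1), the member with an NBRE in 1 of its 4 promoter windows, was called only in this comparison, with signals of 10.44, 10.37 and 10.3 with GFP, 10.34, 10.01 and 10.05 with NR4A1 WT, and 10.56 and 10.95 with NR4A1 CEAA. The WT and GFP arrays overlapped, and both CEAA arrays were above all others. Against GFP it differed by -0.24 for the wild type and by 0.39 ± 0.13 for the mutant (adjusted p = 0.0819), and neither passed the test. That holds for the brightest probe set, and some others of PTP4A1 were called against GFP, as given below. Processed copies of PTP4A1 exist in the genome and may share its signal.

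For PTPRC, PTP4A3 and PTPN7, which were called against GFP in the same direction in both NR4A1 groups, no difference between the groups was called. The difference of NR4A1 WT from NR4A1 CEAA was 0.04 for PTPRC (95% confidence interval -0.18 to 0.25), -0.08 for PTP4A3 (-0.24 to 0.07) and -0.06 for PTPN7 (-0.21 to 0.1). PTPN12 (0.38, interval 0.07 to 0.68, adjusted p = 0.0637) and PTPRM (0.26, interval 0.04 to 0.48, adjusted p = 0.0724) rose with NR4A1 WT against GFP, but a difference from NR4A1 CEAA was not called. By Rank Product, 3 members (PTPN13, PTPN9 and PTPRB) were higher and 1 (PTPRE) was lower with NR4A1 WT, where 1.84% and 0.93% of all genes passed. At 1.5-fold or more PTPN22 joined the higher ones (4.35% of all genes) and PTP4A1 the lower ones (3.59%). The lower members numbered 2 without NR4A1 CEAA replicate 1 and 3 without NR4A1 CEAA replicate 2, and PTP4A1 was lost without the latter (adjusted p = 0.0649). PTPN1 lost its call without any of 7 arrays and PTPRZ1 without any of 6, whereas PTPN13, PTPRB, PTPN9, PTPN22, PTPN6, PTPN18 and PTPRE passed whichever array was left out.

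Several genes had bright probe sets that disagreed, with p here adjusted over all single-gene probe sets and the cases chosen after their values were seen. CD45 was the clearest. The brightest PTPRC probe set, 212588_at, gave the values above. Probe set 212587_s_at read 9.32, 9.44 and 9.06 with GFP, 9.83, 9.62 and 9.26 with NR4A1 WT, and 10.21 and 10.17 with NR4A1 CEAA, and it was higher with NR4A1 CEAA than with GFP by 0.91 ± 0.16 (adjusted p = 0.00776). Probe set 207238_s_at read 9.05, 9.09 and 9.02 with GFP, 9.51, 9.81 and 9.65 with NR4A1 WT, and 8.91 and 8.92 with NR4A1 CEAA, and was higher with NR4A1 WT than with GFP by 0.6 ± 0.08 (adjusted p = 0.00137). The order of the NR4A1 groups was thus opposite in 212587_s_at and 207238_s_at, with WT minus CEAA differences of -0.62 ± 0.16 (adjusted p = 0.0232) and 0.74 ± 0.09 (adjusted p = 0.000473). Against GFP, 212587_s_at was not called with NR4A1 WT (0.3 ± 0.15, adjusted p = 0.254). Nor was 207238_s_at with NR4A1 CEAA (-0.14 ± 0.09, adjusted p = 0.353). A rise in both NR4A1 groups was thus called in the brightest PTPRC probe set alone. Which transcripts each probe set reads was not tested.

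PTPN11 probe sets differed for NR4A1 WT against GFP, without a reversal of the NR4A1 groups. Both 212610_at, followed above, and 209895_at were lower with NR4A1 WT than with NR4A1 CEAA (-0.24 ± 0.07, adjusted p = 0.0278, and -0.9 ± 0.07, adjusted p = 5.52e-05). Probe set 209895_at read 6.94, 7.03 and 6.96 with GFP, 6.54, 6.6 and 6.52 with NR4A1 WT, and 7.4 and 7.5 with NR4A1 CEAA. It fell with NR4A1 WT (-0.42 ± 0.06, adjusted p = 0.00218), where the brighter probe set showed a difference of 0.01, and rose with NR4A1 CEAA (0.47 ± 0.07, adjusted p = 0.00318).

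**Figure D4:**
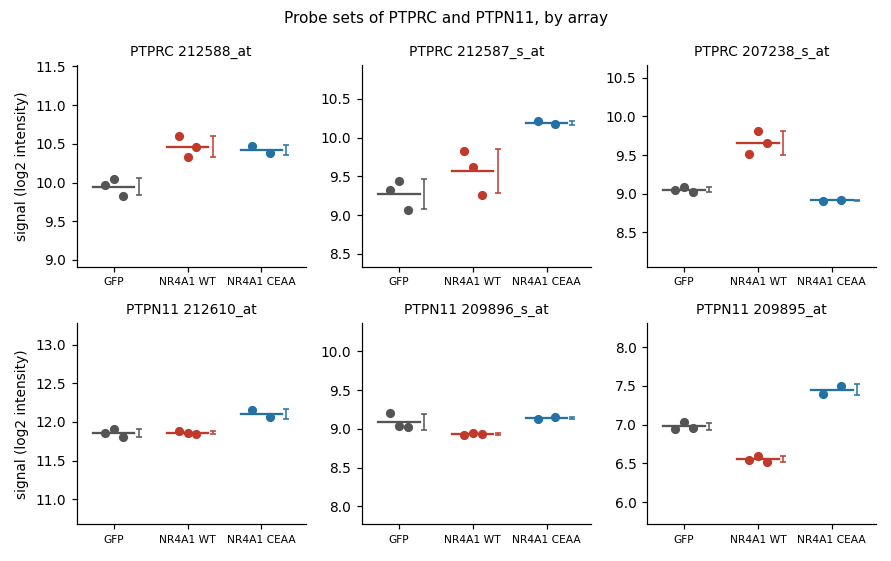
Log2 signal (vertical axis) of 3 probe sets each of PTPRC (top row) and PTPN11 (bottom row), with 1 point per array, a line at each group mean and a bar of 1 SD beside it, on 2 NR4A1 CEAA, 3 NR4A1 WT and 3 GFP arrays. For PTPRC, the CEAA points are the highest in 212587_s_at (10.17 and 10.21) and the lowest in 207238_s_at (8.91 and 8.92). For PTPN11, 209895_at separates all 3 groups.

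For other members, further probe sets gave the direction of the brightest one in some cases and no call in others. For PTP4A3, 206574_s_at read 7.16, 7.22 and 7.35 with GFP, 6.78, 6.88 and 6.76 with NR4A1 WT, and 6.38 and 6.3 with NR4A1 CEAA, so that both NR4A1 groups were lower than GFP and, unlike in the brightest probe set, WT was above CEAA by 0.47 ± 0.08 (adjusted p = 0.0027). For PTP4A1, 200730_s_at was lower with NR4A1 WT (-0.27 ± 0.06, adjusted p = 0.0269) and higher with NR4A1 CEAA (0.39 ± 0.07, adjusted p = 0.0084), both of them called where the brightest probe set was not. Probe set 200732_s_at was also lower with NR4A1 WT (-0.23 ± 0.06, adjusted p = 0.0304) but not called with NR4A1 CEAA (0.14 ± 0.06, adjusted p = 0.188). The PTP4A1 probe sets 200731_s_at and 240329_at were not called against GFP. A further PTPRB probe set, 205846_at, read 4.38, 4.6 and 3.97 with GFP and 5.14, 4.85 and 5.15 with NR4A1 WT, a rise of 0.73 ± 0.16 (adjusted p = 0.0149), and 208010_s_at of PTPN22 rose by 0.52 ± 0.13 (adjusted p = 0.0348) while staying below the array medians. Besides 204944_at of PTPRG, probe sets above the medians on all arrays that were not called where the brightest one was included 1554860_at of PTPN7 (-0.09 ± 0.09 with NR4A1 WT and -0.08 ± 0.1 with NR4A1 CEAA), 214223_at of PTP4A3 (-0.18 ± 0.07 and -0.11 ± 0.08) and 203329_at of PTPRM (0.15 ± 0.06 with NR4A1 WT). The remaining probe sets of PTPN13, PTPN9 and PTPRE were below the medians on all arrays and none was called. Taking the mean of all probe sets of a gene, dim ones included, left the NR4A1 WT differences from GFP at 1.08 for PTPN13, 0.71 for PTPRB, 0.48 for PTPN9 and -0.44 for PTPRE, all still called, and that of PTPN1 at 0.13, no longer called. Of the NR4A1 CEAA differences, those of PTPN18 (-0.15), PTPN5 (-0.13), PTPN9 (-0.08) and PTPRG (0.2) were no longer called on that mean.

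In total, 20 members were called in at least 1 comparison and 17 in none. How many of all genes were called in at least 1 comparison was not counted, so these numbers only account for the members. Among the uncalled genes were PTPRO (9.92 ± 0.11 with GFP, SD, n = 3), a receptor with fibronectin repeats, and PTPN2 (9.83 ± 0.01), which dephosphorylates JAK1 and STAT proteins. Their differences from GFP were 0.09 (95% confidence interval -0.06 to 0.23) and -0.07 (-0.18 to 0.04) with NR4A1 WT, and 0.04 (-0.12 to 0.21) and -0.11 (-0.24 to 0.01) with NR4A1 CEAA. All 17 had differences between -0.32 and 0.25 in the 3 comparisons. By class, none of the LAR receptors PTPRD, PTPRF and PTPRS was called, nor the vesicle proteins PTPRN and PTPRN2, which lack phosphatase activity toward usual substrates. Within the MAM receptors PTPRM was called and PTPRK and PTPRU were not, and within the FERM class PTPN13 and PTPN4 were called while PTPN3, PTPN14 and PTPN21 were not. PTPN20, PTPN23, PTPRA, PTPRH and PTPRR complete the uncalled members. A dimmer probe set was called for 6 of the 17, among them 204935_at of PTPN2 (0.6 ± 0.16 with NR4A1 CEAA against GFP, adjusted p = 0.0389), 213799_s_at of PTPRA (-0.65 ± 0.14 for WT minus CEAA, adjusted p = 0.00967) and 200637_s_at of PTPRF (0.6 ± 0.14 for WT minus CEAA, adjusted p = 0.0119). How often the dimmer probe sets of all genes were called was not counted.

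The genes around these enzymes were read from lists of related phosphatases, kinases and docking proteins, in which differences were again called in both directions. Of 25 related phosphatase genes measured, 2 were higher and 3 lower with NR4A1 WT, and 3 were higher and 6 lower with NR4A1 CEAA. The median log2 differences were -0.01 and -0.02. This list also holds lipid phosphatases and inactive relatives, so its counts are not those of tyrosine phosphatases alone. PALD1, an inactive phosphatase-like protein, fell from 7.41 to 5.73 with NR4A1 WT (-1.68 ± 0.07, adjusted p = 3.51e-06) and also fell with NR4A1 CEAA (-0.36 ± 0.08, adjusted p = 0.0177). CDC25C, an activator of mitotic CDK1, rose with NR4A1 WT (0.81 ± 0.07, adjusted p = 0.000164), as did PTPDC1 (0.43 ± 0.09, adjusted p = 0.0136). UBASH3B, a suppressor of antigen receptor signaling, moved in opposite directions, by -0.54 with NR4A1 WT and 0.39 with NR4A1 CEAA, and the difference between them was -0.93 ± 0.08 (adjusted p = 0.000104). MTM1, a lipid phosphatase of the same fold, rose with NR4A1 CEAA (0.58 ± 0.11, adjusted p = 0.00904), whereas the inactive phosphatase STYXL1 (-0.4 ± 0.08, adjusted p = 0.0141) and the mitochondrial lipid phosphatase PTPMT1 (-0.4 ± 0.07, adjusted p = 0.00607) fell.

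SRC family kinases and their regulators are among the substrates of CD45, PTPRE and the PEST enzymes, and of 13 measured 3 were higher and 2 lower with NR4A1 WT, against 2 higher and 3 lower with NR4A1 CEAA. The ubiquitin ligase CBLB rose with NR4A1 WT (1.16 ± 0.08, adjusted p = 3.5e-05) and less with NR4A1 CEAA (0.3 ± 0.09, adjusted p = 0.046). CSK and MATK, the kinases that place the inhibitory phosphate on SRC enzymes, fell with NR4A1 WT by 0.46 (adjusted p = 0.00109) and by 0.64 (adjusted p = 0.000131), and with NR4A1 CEAA by 0.23 (adjusted p = 0.0495) and by 0.55 (adjusted p = 0.00143). YES1 rose (0.42, adjusted p = 0.0338) and FYN fell (-0.29, adjusted p = 0.00825) with NR4A1 CEAA, while the rise of LCK with NR4A1 WT (0.26, adjusted p = 0.016) was below the array medians. The other cytoplasmic tyrosine kinases gave 1 higher (FER, 0.4) and 1 lower (PTK2B, -0.35) of 14 with NR4A1 WT, and 0 higher (2 at an unadjusted limma p under 0.05) and 2 lower (PTK2B, -0.46, and FES, -0.37) with NR4A1 CEAA.

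JAK, STAT and SOCS genes, whose proteins are regulated by PTPN1, PTPN2 and PTPN6, gave 4 higher and 2 lower of 17 with NR4A1 WT and 2 higher and 3 lower with NR4A1 CEAA. STAT5A (0.9 ± 0.06, adjusted p = 4.01e-05), which the study's lymphocyte list also holds, JAK1 (0.63 ± 0.05, adjusted p = 6.03e-05) and SOCS6 (0.56 ± 0.09, adjusted p = 0.00261) rose with NR4A1 WT, and CISH, a STAT5-induced inhibitor, fell (-0.75 ± 0.07, adjusted p = 0.000161). With NR4A1 CEAA, JAK3 (-0.65 ± 0.06, adjusted p = 0.000911) and TYK2 (-0.35 ± 0.05, adjusted p = 0.00367) fell, and JAK2 (0.33 ± 0.09, adjusted p = 0.0323) and SOCS5 (0.35 ± 0.09, adjusted p = 0.0268) rose.

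The list drawn up around docking of SHP-1 and SHP-2 held the largest single difference of these lists. Which phosphatases its receptors and adaptors recruit was not tested. Of 25 measured, 5 were higher and 4 lower with NR4A1 WT, whereas 0 were higher (also 0 at an unadjusted limma p under 0.05) and 5 lower with NR4A1 CEAA. The inhibitory Fc receptor FCGR2B rose by 4.26 ± 0.12 (adjusted p = 5.94e-07) with NR4A1 WT, from a mean of 3.81, under the array medians, to 8.08, in a probe set that related FCGR2 genes may share. LAIR1 rose with NR4A1 WT (0.64 ± 0.05, adjusted p = 0.000122) and fell with NR4A1 CEAA (-0.32 ± 0.06, adjusted p = 0.0102). CD300A (-1.5 ± 0.08, adjusted p = 8.87e-06) and GAB3 (-0.71 ± 0.09, adjusted p = 0.000789) fell with NR4A1 WT. With NR4A1 CEAA, SIRPA fell by 0.46 (adjusted p = 0.00258), KLRG1 by 0.44 (adjusted p = 0.0139) and SIGLEC7 by 0.29 (adjusted p = 0.0469). KLRG1 was also lower with NR4A1 WT (-0.39 ± 0.08, adjusted p = 0.0107).

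Partners of the PEST phosphatases gave 2 higher and 3 lower of 9 in each NR4A1 group. The adhesion scaffold NEDD9 rose with NR4A1 WT (1.26 ± 0.08, adjusted p = 3.43e-05), as did CD2AP (0.35, adjusted p = 0.0201). Paxillin (PXN) fell with NR4A1 WT (-0.57 ± 0.08, adjusted p = 0.0015) and with NR4A1 CEAA (-0.39 ± 0.09, adjusted p = 0.0187). VAV1, a guanine nucleotide exchange factor of blood cells, also fell in both groups (-0.39 ± 0.07, adjusted p = 0.00564, and -0.33 ± 0.08, adjusted p = 0.0227). PSTPIP2, an actin-binding adaptor, fell with NR4A1 WT (-0.66 ± 0.06, adjusted p = 0.000232) and rose with NR4A1 CEAA (0.3 ± 0.07, adjusted p = 0.0225). CD2BP2 (-0.46, adjusted p = 0.00617) fell and CD2AP (0.43, adjusted p = 0.0152) rose with NR4A1 CEAA. The lists are short and the counts are descriptions beside the background of all genes given above.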

How the data were processed

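Total RNA of 8 Kasumi-1 arrays was processed by the authors in RMA Express, where RMA (Robust Multiarray Analysis) subtracts background, equalizes the distributions of the arrays and reduces each probe set to 1 value. The deposited values are log2 intensities per probe set, from 2.285 to 14.971. Of 54613 probe sets, 41091 carried 1 gene symbol, 1801 several and 11721 none. The analysis kept those with 1 symbol, and 19734 of 19775 genes matched the gene table by identifier. Groups were taken from the sample labels, and no array was left out.

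The 3 groups were fitted in 1 model with limma 3.58.1 in R 4.3.3 (8.04 degrees of freedom per gene), with Benjamini-Hochberg adjustment over all genes and without covariates. Rank Product, with 100 permutations, was an alternative. Others concerned the eBayes trend, array weights, the arrays fitted, dim probe sets, scaling, the replicate block, probe set choice, thresholds and the removal of single arrays. The precision is limited by the number of arrays.

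Members and lists were chosen with earlier results of these data known. All members are accounted for. Values per array are given for PTPN22, PTPRC and members past the test with a log2 difference of at least 0.4 in size, and the genes named from each list are the 4 (or fewer) with the largest differences past the test in each comparison with GFP. Motifs were searched in RefSeq promoter windows (GRCh38.p14). A planned search of protein sequences for the active site loop was not run.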

Additional observations from a re-analysis of the deposited data

How the results depend on the processing

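Of the 36 calls made for members in the 3 comparisons, 0 changed direction under any alternative run. Under some alternatives the direction could not change, since they keep the same log2 difference. These were Rank Product, the stricter thresholds, the eBayes trend and the removal of dim probe sets. Adjustment over all probe sets and the fit of only the groups compared keep it too. No alternative followed another single probe set of a gene. PTPN13, PTPRB, PTPN9 and PTPRE in NR4A1 WT against GFP and against NR4A1 CEAA, and PTPN22 and PTPN12 in NR4A1 WT against GFP, passed under all 20 alternatives. For NR4A1 WT against GFP, the numbers of higher and lower members were 5 and 1 by Rank Product and at 1.5-fold or more. For NR4A1 CEAA against GFP they were 0 and 0 by Rank Product, 0 and 2 at an adjusted p under 0.01, and 1 and 0 at 1.5-fold, beside 5 and 7 at an unadjusted limma p under 0.05, and the mean of all probe sets left 3 lower. For NR4A1 WT against NR4A1 CEAA they were 3 and 1 by Rank Product and 4 and 2 at 1.5-fold, and an adjusted p under 0.01 left 3 lower.

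With the replicate number as a block, 26 of 36 calls remained past the threshold, with 1 higher and 3 lower members for NR4A1 CEAA against GFP and 3 lower for NR4A1 WT against NR4A1 CEAA. No sign was seen that the numbers pair the arrays. The deviations of arrays of the same number correlated between -0.041 and 0.086, and 1 of 6 GFP and NR4A1 WT arrays correlated best with its own number. Deviations from the means of so few arrays cannot exclude a pairing.

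With each array left out in turn, higher and lower members ranged from 7 to 9 and from 3 to 3 for NR4A1 WT against GFP, from 0 to 4 and from 2 to 6 for NR4A1 CEAA against GFP, and from 7 to 9 and from 2 to 6 for NR4A1 WT against NR4A1 CEAA. Without 1 CEAA array, the other is taken to vary like the rest. Quantile normalization run again moved the share of called genes that were higher with NR4A1 CEAA than with GFP from 37.2% to 48.3%. Dim probe sets, with 3 of 36 calls not tested after their removal, are the limit for PTPN5 and PTPRZ1.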
